A study of Homo sapiens with 16 samples.

Results

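The libraries described here are 8 of the 16 of the experiment: 4 from pools in which CREBBP was targeted and 4 from control pools in which the AAVS site was targeted, all cultured with IL4. They were chosen by their labels, and each CREBBP pool was compared with the AAVS pool of the same lymphoma line. The other 8 libraries, of the same pools without IL4 (baseline), set the level of each gene before treatment and served as a second, separately sequenced comparison of CREBBP with AAVS pools. All pools came from established human B-cell lymphoma lines and carried a lentiviral vector with Cas9 and a mixture of guides, so the control pools carried Cas9 and a cut at a control site rather than no cut. The labels give the genotypes as CREBBP -/- and AAVS -/-, but the cells are pools of edited cells and not clones, and an edit that leaves the reading frame open would stay in the pool. IL4 was given at 10 ng/ml for 4 h, and the baseline cultures ran for the same 4 h. Line 1 is SUDHL4 and line 4 is DOHH2, whereas the sample titles and the cell line entries name OCILY7 and SUDHL10 in opposite order for the remaining lines, which are called line 2 and line 3.

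CREBBP is a lysine acetyltransferase that acetylates histone H3 at enhancers and serves as a coactivator for many transcription factors, and EP300 is its close paralogue. CREBBP is often mutated in lymphomas of germinal centre B cells, where it is known for keeping genes of antigen presentation and of germinal centre exit switched on. IL4 is a T-cell cytokine that binds the IL4 receptor on B cells, activates the kinases JAK1 and JAK3 and leads to phosphorylation of STAT6, which enters the nucleus and recruits coactivators to its target genes. The comparison asks which transcripts differ between cells with and without CREBBP while this pathway is switched on.

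The CREBBP guides are shown because they define the edited arm of the comparison. Each of the 4 matched exactly 1 site on the main chromosomes of GRCh38, and the lines below give the 20-base target in lower case followed by the adjacent PAM in capitals.
CREBBP_1: cttagcccactgatgaacgaTGG
CREBBP_2: ccgcaaatgactggtcacgcGGG
CREBBP_3: attgcccccctccaaacacgAGG
CREBBP_4: caggacggtacttacgtctgGGG
CREBBP lies on the minus strand of chromosome 16 (chr16:3725054-3880713, GENCODE release 44) with 31 exons in the transcript used here. In that order, the expected cuts of its guides fall in coding sequence of exon 8 (target chr16:3780864-3780883, minus strand), exon 2 (chr16:3850334-3850353, minus strand), exon 25 (chr16:3739580-3739599, minus strand) and exon 20 (chr16:3751711-3751730, plus strand). Exons were assigned by the base at the cut, so a target may reach past the end of its exon.

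CREBBP itself was measured as CPM, the count of a gene per 1000000 counts of its library. With IL4, lines 1 to 4 held 315, 190.5, 315 and 379 CPM in the AAVS pools and 214, 69.9, 245 and 218 CPM in the CREBBP pools. It was lower in the CREBBP pool of 4 of 4 lines, but the groups overlapped, and the fitted log2 fold change of -0.51 ± 0.23 (SE, 4 lines) did not pass the test (edgeR, adjusted p = 0.218). Without IL4 the log2 fold change was -0.11 ± 0.21. EP300 did not pass the test either, with a log2 fold change of -0.29 ± 0.25 (edgeR, adjusted p = 0.488). A gene count includes edited transcripts that no longer encode the protein, so these values do not measure the loss of protein, which the authors checked by immunoblot.

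The total counts of the libraries with IL4 ran from 19649735 to 47716763 in the AAVS pools and from 40248937 to 61981976 in the CREBBP pools. The CREBBP IL4 library of line 2 stood apart in composition, with 18.1% of its counts in the small noncoding 7SK and 7SL genes against 4.41% to 10.7% in the other 7, and with a scaling factor of 0.673 against 0.960 to 1.13. The library of line 2 also stood apart in which genes it held: it differed from each of the other CREBBP IL4 libraries at 175 to 224 genes that were at 10 CPM or more in one library and under 0.5 CPM in the other, whereas lines 1, 3 and 4 differed from one another at only 2 to 11 genes. The 3 lines are named as separate lines in the labels and were counted as such, and whether they are independent was not tested.

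The 4 AAVS IL4 libraries stood apart from the other 12 as a group, since they held transcripts of some cell types that these lines are not. The monocyte, dendritic, stromal and endothelial sums overlapped those at AAVS baseline (monocyte 16.2 to 21.7 against 11.9 to 20.5 CPM). The monocyte sums lay above those of the CREBBP libraries, 5.22 to 15.7 CPM at baseline and 4.96 to 11.6 CPM with IL4. With IL4, LYZ and ITGAM of 5 tested monocyte markers and COL1A1 of 2 tested stromal markers were called lower. The epithelial list summed to between 2.12 and 34.9 CPM in the AAVS IL4 libraries and to at most 0.295 CPM elsewhere. Its 1 tested gene, CDH1, was called lower. Of 13 T-cell markers, such as CD3D, CD2 and ICOS, 11 were called lower in the CREBBP pools with IL4. Their summed level ran from 40.8 to 264 CPM in the AAVS IL4 libraries, against 3.49 to 25.8 CPM at AAVS baseline, 2.76 to 38.3 CPM at CREBBP baseline and 2.19 to 33.1 CPM in the CREBBP IL4 libraries, and 5 of the 13 were at 0 in every CREBBP IL4 library. Markers of B cells outside the germinal centre, such as naive and memory cells, summed to between 943 and 4587 CPM in the AAVS IL4 libraries and to between 51.9 and 289 CPM in the CREBBP IL4 libraries, and 9 of 13 were called lower. Within this list, IGHM, the heavy chain of IgM, held 951, 711, 1711 and 138 CPM in the AAVS IL4 libraries of lines 1 to 4 and at most 0.0696 CPM elsewhere in the 12 remaining libraries. The erythroid and platelet list summed to between 3.46 and 20 CPM against at most 0.870 CPM in the CREBBP IL4 libraries. The plasma cell list summed to 3982, 378, 8064 and 764 CPM in the AAVS IL4 libraries of lines 1 to 4. It held 214 to 921 CPM at AAVS baseline and 345 to 1024 CPM in the CREBBP IL4 libraries, so only lines 1 and 3 lay above these. Of its 5 tested genes, PRDM1 was called lower. By contrast, B-lineage markers, including CD79A, summed to similar levels with IL4, 2186 to 3639 CPM in the AAVS and 2282 to 2591 CPM in the CREBBP pools. Without IL4 their sums did not overlap, with 2564 to 3948 CPM in the AAVS and 1842 to 2456 CPM in the CREBBP pools. All 4 AAVS IL4 libraries carried the transcripts of other cell types, so no result can be given without them, and each result below stands beside them. In RNA of a whole culture, fewer cells of a type and less RNA per cell cannot be told apart. Their part in the differences between CREBBP and AAVS pools with IL4 was not tested.

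**Figure D1:**
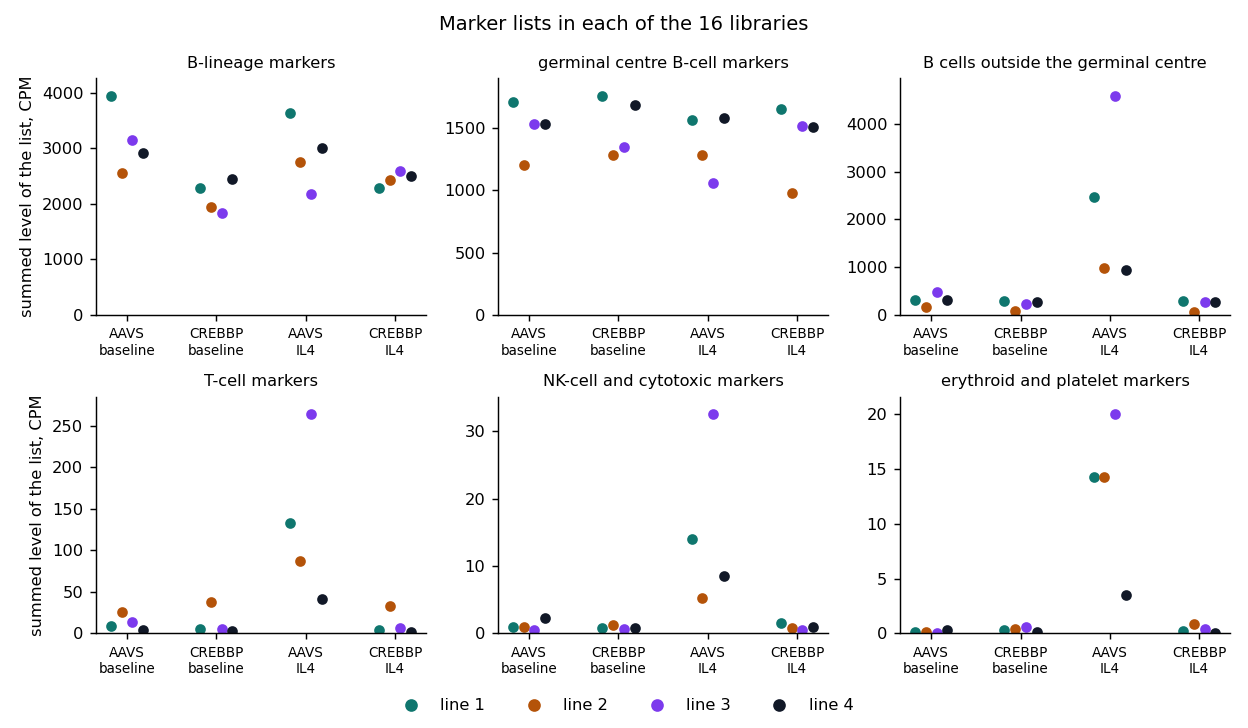
Summed level in CPM (vertical axes, from 0) of 6 lists of marker genes in each of the 16 libraries, with the 4 groups along the horizontal axes and 1 point per line. The B-lineage and germinal centre B-cell lists overlap between AAVS and CREBBP pools with IL4. At baseline the B-lineage sums of the CREBBP pools lie below those of all AAVS pools. The T-cell, NK-cell, erythroid and non-germinal-centre B-cell lists are highest in the AAVS IL4 libraries, with line 3 at the top.

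With IL4, 859 of 19581 genes tested, or 4.39%, differed between CREBBP and AAVS pools (quasi-likelihood test of edgeR, blocked by line, adjusted p under 0.05). In the CREBBP pools, 189 were higher, 0.965% of all tested, and 670 were lower, 3.42%. The split by direction differed between genes that were at or above 1 CPM in each of the 4 AAVS baseline libraries and those that were not. Among the 11883 genes that were, 186 were higher (1.57%) and 163 lower (1.37%), whereas among the other 7698 genes 3 were higher (0.039%) and 507 lower (6.59%). In 291 of the 507, every library other than the 4 AAVS IL4 libraries was under 0.5 CPM. The filter on low counts lets such genes through by their level in the AAVS IL4 libraries, so this split describes the tested genes only. The baseline class made up 98.4% of the higher and 24.3% of the lower calls. The latter share rests on the definition: with 1 CPM in at least 1 AAVS baseline library, 310 of the 670 lower genes were at baseline level, with a mean of 1 CPM 263, and 360 of the 507 were under 1 CPM in each of the 4. In the plot of fold change against level without IL4, the lower calls reach down to genes with no baseline signal. The 186 higher calls of the baseline class cannot, since 1 CPM or more in each AAVS baseline library defines that class. NAT8L, 1 of the other 3, lies among the 186 on the level axis, with a mean of 13.8 CPM.

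The classes also differed in the size of the differences, which the choice of genes fixes in part. Genes low at baseline and lower in the CREBBP pools pass the filter on low counts through the AAVS IL4 libraries. The 186 higher genes had a median log2 fold change of 1.37, from 0.95 to 2.45. The 163 lower genes at baseline level had a median of -2.15, and the 507 lower genes below it had a median of -6.35, or -5.77 with the 104 that were at 0 in every CREBBP IL4 library set at their lower bound (3 counts per library). The median over all tested genes was -0.05, and 0.18 over those at baseline level. All 670 lower genes and 180 of the 186 higher genes of the baseline class differed by over 2-fold. The direction was shared by 4 of 4 lines for each of the 670 lower genes and for 177 of the 186, against 7481 of 19581 tested genes. The choice of genes by a test blocked by line fixes these counts in part.

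The numbers of calls rested on single lines. Without line 1 or without line 3, no gene was called higher by edgeR and 104 or 25 were called lower, although 1417 and 1359 genes were higher at an unadjusted p under 0.05. Without line 4, 6 were higher and 309 lower. Without line 2, whose CREBBP library stood apart, the counts rose to 886 higher and 1661 lower, among them 189 of the 189 and 662 of the 670. Without the block 17 were higher and 523 lower. With upper-quartile scaling, which moved the median of all tested genes from -0.05 to -0.27, the baseline class held 100 higher and 249 lower genes in place of 186 and 163.

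**Figure D2:**
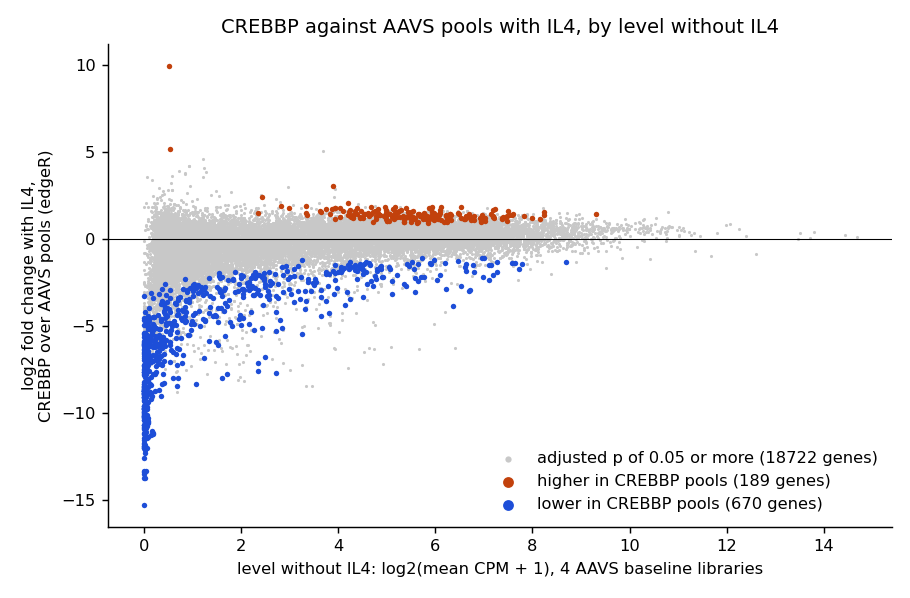
Log2 fold change of CREBBP over AAVS pools with IL4 (vertical axis, edgeR) against log2(mean CPM + 1) in the 4 AAVS baseline libraries (horizontal axis), 1 point per gene tested. Of the 189 genes called higher (orange), the 186 at baseline level lie between 0.95 and 2.45 and the other 3 between 3.09 and 9.97. The 670 called lower (blue) crowd the left edge, where they reach the largest negative values. Fitted values of genes at 0 depend on the prior count.

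Of 16 DNA replication genes, all at baseline level, 9 were called higher with IL4 and none lower, and 16 of 16 had a positive log2 fold change with a median of 1.62. The 9 were CDC6 and CDC45, which load and activate the replicative helicase, the helicase subunits MCM3 and MCM6, GINS2 of the GINS complex that joins it, the polymerase alpha subunit POLA1, the sliding clamp PCNA, and the ribonucleotide reductase subunits RRM1 and RRM2, which make deoxynucleotides. The replication list was positive in 16 of 16 genes under each of the 3 scalings.

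CDC6 held 27.0, 82.1, 31.0 and 32.8 CPM in the AAVS pools with IL4 (lines 1 to 4) and 115, 117, 102 and 110 CPM in the CREBBP pools. The CREBBP pools were close to one another and above all AAVS pools, and line 2 stood out as the high AAVS pool. Its log2 fold change was 1.79 ± 0.26 (edgeR, adjusted p = 0.0186). MCM6 (chr2) held 73.3, 368, 70.7 and 94.5 CPM in the AAVS pools and 218, 553, 312 and 264 CPM in the CREBBP pools with IL4. Each CREBBP pool was above the AAVS pool of its line, although the AAVS pool of line 2 was above 3 of the CREBBP pools, and the log2 fold change was 1.72 ± 0.27 (edgeR, adjusted p = 0.0237). PCNA held 78.1, 280 and 45.7 CPM in the AAVS pools of lines 1 to 3 and 91.1 CPM in line 4, against 156, 451, 293 and 227 CPM in the CREBBP pools. It showed the same order, with overlap only through line 2, and a log2 fold change of 1.68 ± 0.35 (edgeR, adjusted p = 0.0431). The remaining 7 of the 16, including MCM2, MCM4, MCM5 and MCM7, had adjusted p-values of 0.05 or more.

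The difference was not equal across lines. The median difference in log2(CPM + 1) over the 16 replication genes was 1.55 in line 1, -0.02 in line 2, 2.12 in line 3 and 1.21 in line 4, and 7 of 16 genes were higher in line 2 against 16 of 16 in each of the other lines. The summed T-cell markers of the AAVS IL4 libraries were 133, 86.6, 264 and 40.8 CPM in lines 1 to 4. The part of these transcripts in the difference was not tested.

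**Figure D3:**
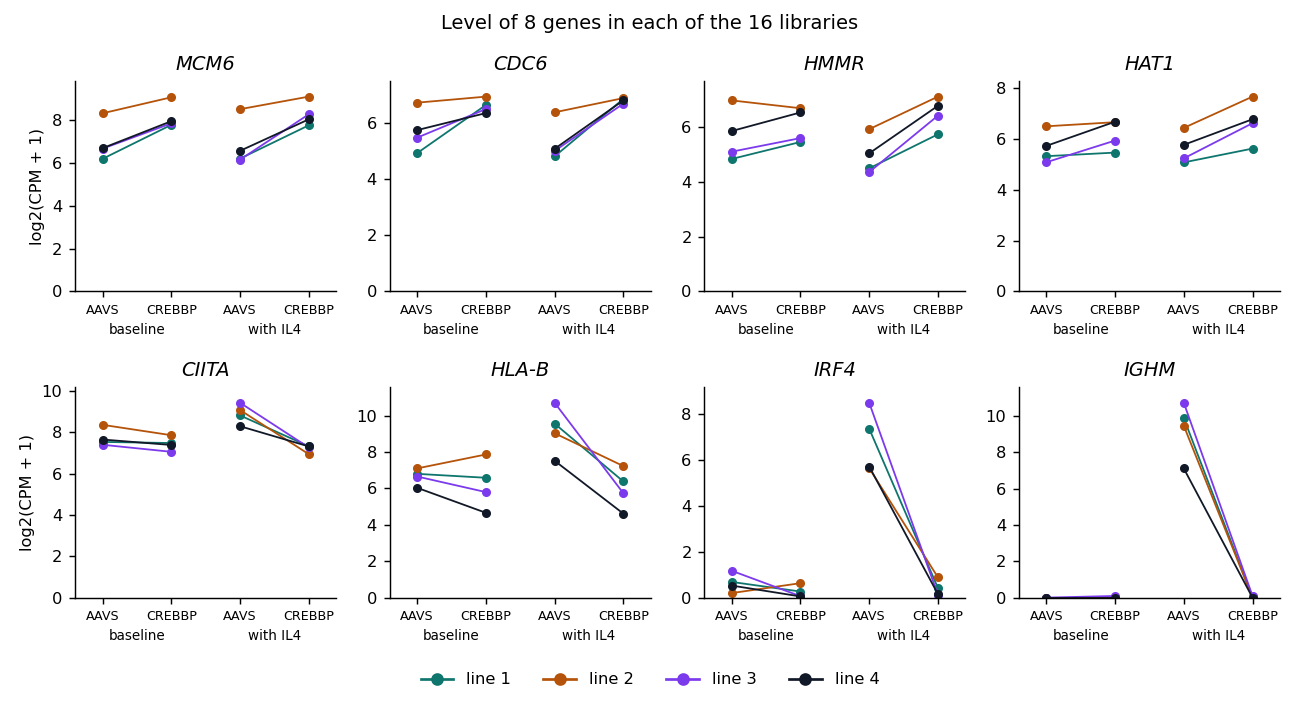
Level as log2(CPM + 1) (vertical axes, from 0) of 8 genes in each of the 16 libraries, with lines joining the AAVS and CREBBP pools of a lymphoma line. MCM6, CDC6, HMMR and HAT1 lie higher in the CREBBP pool of every line with IL4, and CIITA, HLA-B, IRF4 and IGHM lie lower, the last 2 from a high level that only the AAVS IL4 libraries show.

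Of 20 mitotic genes, 4 were called higher and none lower with IL4: HMMR, a spindle and hyaluronan-binding protein, the mitotic cyclins CCNB1 and CCNB2, and the spindle checkpoint kinase TTK. All 20 had a positive log2 fold change, with a median of 1.23, and 19 had an unadjusted p under 0.05. By line, 20 of 20 were higher in lines 1, 3 and 4 and 12 of 20 in line 2. HMMR held 21.4, 59.2, 19.4 and 31.7 CPM in the AAVS pools with IL4 and 51.9, 136, 83.8 and 108 CPM in the CREBBP pools. Every CREBBP pool was above the AAVS pool of its line by over 2-fold, the AAVS pool of line 2 overlapped the CREBBP pool of line 1, and the log2 fold change was 1.87 ± 0.24 (edgeR, adjusted p = 0.0127). MKI67, a marker of cycling cells, had a log2 fold change of 0.94 ± 0.52 and did not pass the test (edgeR, adjusted p = 0.297).

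The genes named by the largest fold or the highest level in the class of 186 included further parts of the replication machinery. PCLAF, a PCNA-binding factor, held 6.59, 23.3, 6.56 and 15.0 CPM in the AAVS pools and 26.9, 78.5, 27.9 and 42.2 CPM in the CREBBP pools with IL4. All CREBBP pools were above all AAVS pools (1.39% of tested genes did not overlap in this direction), with a log2 fold change of 2.12 ± 0.26 (edgeR, adjusted p = 0.0119). POLE2, a subunit of polymerase epsilon, had a log2 fold change of 1.93 ± 0.38, and RFC3, of the clamp loader, 1.89 ± 0.26. NME1, a nucleoside diphosphate kinase, rose by 1.87 ± 0.23 on the log2 scale from 39.5 to 114 CPM in the AAVS pools to 119 to 329.7 CPM in the CREBBP pools. The most abundant of the class were LDHB, a lactate dehydrogenase subunit, PA2G4, a growth-related binding protein of ribosome biogenesis, and STMN1, which destabilizes microtubules, with log2 fold changes of 1.46 ± 0.27, 1.57 ± 0.30 and 1.38 ± 0.25. LDHB ran from 361 to 524 CPM in the AAVS pools with IL4, and the CREBBP pools, at 923 to 1198 CPM, did not overlap them. PDZRN4 (log2 fold change 2.45 ± 0.48) and HEMGN (1.89 ± 0.37) had the other large values, at low levels of up to 17.6 and 21.3 CPM. HAT1, which acetylates newly made histone H4, was the only called gene of 10 lysine acetyltransferases: it held 32.9, 86.0, 36.8 and 53.8 CPM in the AAVS and 48.5, 203, 97.9 and 109 CPM in the CREBBP pools with IL4, a log2 fold change of 1.34 ± 0.27 (edgeR, adjusted p = 0.0412). Of the 3 higher genes below baseline level, 1 had a symbol: NAT8L, the N-acetylaspartate synthase, with 22.3, 0.0295, 2.09 and 1.26 CPM in the AAVS and 49.3, 1.24, 31.1 and 7.13 CPM in the CREBBP pools.

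The higher genes differed in the same direction in the libraries made without IL4. None of the 18936 genes tested at baseline was called by edgeR, although 2422, or 12.8%, had an unadjusted p under 0.05 and DESeq2 called 511. Without line 2, edgeR called 515. Yet 186 of the 186 higher genes had a positive log2 fold change at baseline, against 52.2% of all tested genes at baseline level, with a median of 0.59. Of the 186, 128 had an unadjusted p under 0.05 in this direction, against 1045 of 11883 (8.79%), and 68 were higher in 4 of 4 lines (36.6% against 6.82%). For the replication list, 16 of 16 genes were positive with an unadjusted p under 0.05, with a median log2 fold change of 1.04 and line medians of 1.53, 0.25, 0.98 and 0.90. The baseline libraries are of the same pools, so they repeat the library and culture but not the editing. Their T-cell markers summed to 3.49 to 25.8 CPM in the AAVS and 2.76 to 38.3 CPM in the CREBBP pools, which overlap.

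MCM6 without IL4 held 72.8, 322, 102 and 103 CPM in the AAVS pools and 221, 542, 232 and 249 CPM in the CREBBP pools. Each CREBBP pool was again above the AAVS pool of its line, and the log2 fold change of 1.31 ± 0.20 stood beside 1.72 ± 0.27 with IL4. For the mitosis list the baseline median was 0.35, with 6 of 20 genes at an unadjusted p under 0.05. Per line, its median difference without IL4 was 0.55, -0.27, 0.00 and 0.71 on the log2(CPM + 1) scale, against 0.89, 0.19, 2.12 and 0.73 with IL4.

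Relative to AAVS baseline, the median over the 186 genes was lower by 0.34 in the AAVS IL4 libraries on the log2(CPM + 1) scale, higher by 0.47 at CREBBP baseline and higher by 0.70 in the CREBBP IL4 libraries. The AAVS IL4 libraries had the lowest of the 4 group means in 185 of the 186 genes, against 36.9% of tested genes at baseline level, a count that the choice of genes lower in these libraries fixes in large part. A test of the difference between the comparisons with and without IL4 (1 edgeR model of all 16 libraries, 140 of 21932 genes called, 0.638%, and 4 of them, 0.0182%, higher with IL4) called 1 of the 186, HMMR, with a difference of 1.42 ± 0.25 (edgeR, adjusted p = 0.0351). Its 140 calls fell to 16 without line 1 and 18 without line 3 and rose to 264 without line 2.

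**Figure D4:**
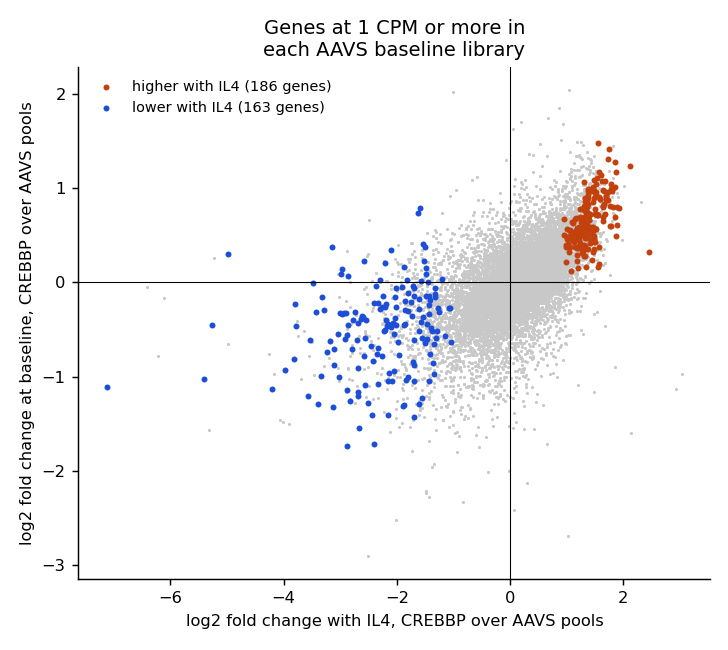
Log2 fold change of CREBBP over AAVS pools at baseline (vertical axis) against the same with IL4 (horizontal axis) for the genes at 1 CPM or more in each AAVS baseline library, 1 point per gene. The 186 genes called higher with IL4 (orange) all lie above 0 at baseline, whereas the 163 called lower (blue) lie mostly but not all below it.

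The promoters of the higher cell cycle genes are shown because these genes were called higher and such promoters are known for 2 short motifs. E2F factors bind letters such as TTTCCCGC and TTTGGCGC in replication genes, and the cell cycle homology region TTTGAA, often with CCAAT boxes upstream, is bound in mitotic genes. The lines give the 250 bases before the RefSeq start (GRCh38.p14, strand of the gene), with the matching letters of either strand in capitals, E2F letters for the first 3 genes and TTTGAA for the last pair.
MCM6: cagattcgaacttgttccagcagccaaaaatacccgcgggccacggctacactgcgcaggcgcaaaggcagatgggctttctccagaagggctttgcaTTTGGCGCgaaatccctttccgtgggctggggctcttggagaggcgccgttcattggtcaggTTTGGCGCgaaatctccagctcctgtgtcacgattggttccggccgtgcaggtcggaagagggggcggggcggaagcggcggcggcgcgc
GINS2: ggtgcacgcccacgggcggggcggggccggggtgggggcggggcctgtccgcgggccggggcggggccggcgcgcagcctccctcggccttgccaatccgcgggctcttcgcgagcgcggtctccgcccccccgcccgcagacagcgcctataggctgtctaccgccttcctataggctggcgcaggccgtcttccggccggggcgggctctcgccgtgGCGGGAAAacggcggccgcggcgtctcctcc
PCNA: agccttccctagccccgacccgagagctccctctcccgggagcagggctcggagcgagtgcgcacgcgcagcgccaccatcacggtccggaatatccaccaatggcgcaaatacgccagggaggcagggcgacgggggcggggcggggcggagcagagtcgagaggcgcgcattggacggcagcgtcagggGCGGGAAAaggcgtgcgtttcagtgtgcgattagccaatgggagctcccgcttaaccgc
CCNB2: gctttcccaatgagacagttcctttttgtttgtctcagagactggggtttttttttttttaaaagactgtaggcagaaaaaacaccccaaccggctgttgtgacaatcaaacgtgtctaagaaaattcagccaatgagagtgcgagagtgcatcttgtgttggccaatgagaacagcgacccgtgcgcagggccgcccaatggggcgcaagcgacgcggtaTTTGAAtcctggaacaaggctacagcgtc
HMMR: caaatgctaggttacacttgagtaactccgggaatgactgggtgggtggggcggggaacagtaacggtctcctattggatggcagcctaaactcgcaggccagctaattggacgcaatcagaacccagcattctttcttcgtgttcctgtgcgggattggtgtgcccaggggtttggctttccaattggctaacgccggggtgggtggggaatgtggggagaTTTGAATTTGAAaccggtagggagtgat
They lie at chr2:135876444-135876693 (MCM6, minus strand), chr16:85688955-85689204 (GINS2, minus strand), chr20:5126623-5126872 (PCNA, minus strand), chr15:59104896-59105145 (CCNB2, plus strand) and chr5:163460382-163460631 (HMMR, plus strand). The E2F letters begin 152 and 90 bases before the start of MCM6, 31 before that of GINS2 and 59 before that of PCNA. The TTTGAA letters begin 29 bases before the start of CCNB2, and 28 and 22 before that of HMMR.

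In RefSeq promoters of 300 bases (250 before to 50 after the start), either of the E2F words was present in 9 of 14 replication genes with a promoter entry (64.3%), in 21 of 158 of the higher baseline class (13.3%) and in 3.61% of 11532 tested genes. TTTGAA was present in 11 of 17 mitosis genes (64.7%), in 18.4% of the higher baseline class and in 10.3% of tested genes. CCAAT was present in 53.2% of the higher class, 25.8% of the lower baseline class and 36.9% of tested genes. The STAT6 motif, TTC and GAA set 4 bases apart, was present in 4.84% of the lower baseline class, 4.68% of the lower class below baseline level and 4.73% of tested genes, and in 3 of 26 promoters of the core IL4 programme (11.5%). The AP-1 letters TGANTCA were present in 9.68%, 7.89% and 4.74% of these sets, in the same order, and in 2.53% of the higher class. Over all 27305 promoters the shares were 2.31% for E2F, 15.4% for TTTGAA, 35.7% for CCAAT, 6.37% for STAT6 and 7.76% for AP-1. Both strands were searched, each motif was counted on its own also where matches overlapped, and the absence of these letters from the window says nothing on binding elsewhere.

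Among the lower genes, those of the IL4 pathway itself are described first. Of 33 tested genes of the core IL4 programme, a list the study had defined by IL4 induction in primary B cells and follicular lymphoma samples, not in these lines, 8 were called lower with IL4, none was called higher, and 32 had a negative log2 fold change. The median was -1.99. The called genes that were at baseline level were QSOX1, a secreted sulfhydryl oxidase, and MAP3K14, the NF-kappaB-inducing kinase. QSOX1 held 35.3, 6.75, 60.9 and 33.5 CPM in the AAVS pools with IL4 and 15.8, 1.29, 12.4 and 12.5 CPM in the CREBBP pools, lower in each line with overlap through line 2 (log2 fold change -1.54 ± 0.28; edgeR, adjusted p = 0.0346). Its baseline log2 fold change had the other sign, 0.40 ± 0.30. The other 6 were below baseline level: the cytokine IL6, the protease inhibitor SPINT2, the homeobox factor HLX, TMEM71, the guanine nucleotide exchange factor DOCK10, and PALLD, which binds actin.

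DOCK10 held 145, 22.2, 305 and 101 CPM in the AAVS pools with IL4 and 0.717, 2.73, 0.626 and 0.678 CPM in the CREBBP pools, without overlap (12.9% of tested genes did not overlap in this direction). IL6 held 32.3, 2.95, 81.9 and 3.58 CPM in the AAVS pools with IL4 and at most 0.0232 CPM in the CREBBP pools. CISH, a feedback inhibitor of cytokine receptors, held 22.9, 9.25, 55.6 and 9.51 CPM in the AAVS pools and 0.232, 3.83, 0.255 and 0.0645 CPM in the CREBBP pools without passing the test (edgeR, adjusted p = 0.0604). In the AAVS pools each of these genes was highest in line 3, then in lines 1, 4 and 2. The summed T-cell markers were also highest in lines 3 and 1, but higher in line 2 than in line 4. Their part in these values was not tested. With IL4, the list's median difference per line was -1.89, -0.92, -2.75 and -1.46 on the log2(CPM + 1) scale.

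Of 10 tested genes of the receptor, the JAK kinases, STAT6 and SOCS inhibitors, 2 were lower: JAK1, the kinase bound to the receptor chain IL4R, and SOCS3, an inhibitor of JAK signalling. JAK1 held 302, 186, 505 and 197 CPM in the AAVS pools and 53.4, 57.2, 74.0 and 64.5 CPM in the CREBBP pools with IL4, with no overlap and a log2 fold change of -1.87 ± 0.32 (edgeR, adjusted p = 0.0281). STAT6, which carries the signal to the nucleus, had a log2 fold change of -0.20 ± 0.23 and IL4R one of -1.68 ± 0.46, neither passing the test (edgeR, adjusted p = 0.598 and 0.0805).

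MHC class II genes, which present antigen to helper T cells, were lower in part. Of 16 genes, 3 were called lower and none higher, with a list median of -0.93. CIITA, the coactivator that switches class II genes on, held 448, 537, 686 and 312 CPM in the AAVS pools with IL4 and 158.5, 122, 152 and 158 CPM in the CREBBP pools. All CREBBP pools lay below all AAVS pools, with a log2 fold change of -1.42 ± 0.26 (edgeR, adjusted p = 0.0346), whereas at baseline it was -0.19 ± 0.18. HLA-DMB, which helps to load peptides, had a log2 fold change of -1.50 ± 0.27 and HLA-DRB1, an antigen-presenting beta chain, one of -1.45 ± 0.31. HLA-DRB1 shares sequence with other DRB genes, so that reads may be split between them. The invariant chain CD74 and HLA-DRA had log2 fold changes of -0.66 ± 0.35 and -1.08 ± 0.35 and did not pass the test.

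Of 12 MHC class I genes, 6 were lower: the heavy chains HLA-B, HLA-C, HLA-E and HLA-F, the peptide transporter TAP1, and NLRC5, the coactivator of class I genes. HLA-B held 753, 522, 1669 and 182 CPM in the AAVS pools with IL4 and 82.4, 149, 52.3 and 23.5 CPM in the CREBBP pools, without overlap and with a log2 fold change of -2.96 ± 0.58 (edgeR, adjusted p = 0.0398). HLA-B and HLA-C are near-identical in parts, which makes the split of reads between them uncertain. TAP1 had a log2 fold change of -1.87 ± 0.32 and NLRC5 one of -1.98 ± 0.42. B2M, the shared light chain, ran from 625 to 1514 CPM in the AAVS pools, the CREBBP pools held 423 to 1275 CPM, and it did not pass the test (log2 fold change -0.41 ± 0.50). The class I median per line was -1.95, -1.52, -3.07 and -1.70 with IL4 and -0.04, -0.01, -0.39 and -0.05 without it.

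All 12 genes of the NF-kappaB list had negative log2 fold changes with IL4, under each of the 3 scalings, with a median of -1.37, and 4 were called lower. These were the adaptor TRAF1, the ubiquitin ligase BIRC3, and the inhibitors NFKBIE and TNFAIP3. TNFAIP3 held 182, 117, 411 and 125 CPM in the AAVS pools and 11.9, 44.5, 10.2 and 3.94 CPM in the CREBBP pools with IL4, without overlap (log2 fold change -3.79 ± 0.80; edgeR, adjusted p = 0.0459). Without IL4 the list had a median of -0.13, with 5 of 12 genes positive. Of 17 immediate early genes, FOSB, FOSL2, NR4A2 and NR4A3 were lower and none higher, and 17 of 17 were negative. FOSB, an AP-1 subunit, held 128, 58.0, 294 and 40.2 CPM in the AAVS pools and 41.7, 18.1, 45.1 and 14 CPM in the CREBBP pools with IL4, with overlap and a log2 fold change of -1.60 ± 0.29 (edgeR, adjusted p = 0.0336).

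Receptors that place B cells in lymphoid tissue were lower in 5 of 10 cases: CXCR4, CCR6, CCR7, GPR183 and S1PR1. CXCR4, which draws cells to the dark zone of the germinal centre, held 742, 201, 1165 and 377 CPM in the AAVS pools and 183, 71.7, 189.9 and 113 CPM in the CREBBP pools with IL4 (log2 fold change -1.69 ± 0.31; edgeR, adjusted p = 0.0355). The groups did not overlap. S1PR2 and P2RY8, which confine cells to the germinal centre, had log2 fold changes of 0.42 ± 0.44 and 0.12 ± 0.32. Of 8 tested genes of plasma cell differentiation, the factors IRF4, PRDM1 and XBP1 and the surface protein SLAMF7 were lower. IRF4 held 165, 49.3, 362 and 51.7 CPM in the AAVS pools with IL4, at most 1.25 CPM at AAVS baseline and 0.337, 0.845, 0.0928 and 0.113 CPM in the CREBBP pools with IL4. The AAVS IL4 libraries stood alone in this gene. XBP1, at baseline level, held 138, 70.7, 315 and 68.8 CPM against 25.9, 26.4, 19.3 and 12.9 CPM (log2 fold change -2.29 ± 0.48; edgeR, adjusted p = 0.0451), and JCHAIN, MZB1, CD38 and TNFRSF17 of the same list had positive values of 0.21 to 0.48.

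Of the p53 list, CDKN1A, which inhibits cyclin-dependent kinases, was the only one of 17 tested genes called, and it was lower, with a log2 fold change of -1.62 ± 0.30 (edgeR, adjusted p = 0.0355). It had a positive value at baseline, 0.73 ± 0.59. PRKCB of the B-cell receptor list was lower with IL4 (log2 fold change -1.35 ± 0.27) and had a like value without it, -0.98 ± 0.19. The complement receptor CR2 was the only call among 11 B-cell surface antigens.

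The lower genes at baseline level named by fold or level were led by HSPA1A, an inducible heat shock protein, which held 251, 65.3, 543 and 57.9 CPM in the AAVS pools with IL4 and 0.443, 4.37, 0.394 and 0.887 CPM in the CREBBP pools. The groups were far apart (log2 fold change -7.11 ± 1.33; edgeR, adjusted p = 0.0355), and reads may be shared with the near-identical HSPA1B. LMNA, which encodes lamin A, and PDE4B, a cyclic AMP phosphodiesterase, had log2 fold changes of -5.27 ± 0.92 and -4.21 ± 0.40. PDE4B held 119, 21.9, 262 and 26.8 CPM in the AAVS pools with IL4, 4.01, 2.02, 4.10 and 3.34 CPM in the CREBBP pools at baseline and 3.08, 0.870, 8.98 and 3.15 CPM in the CREBBP pools with IL4. The transcriptional repressor ZBTB20, the helicase-like HELZ2 and the receptor HEG1 had log2 fold changes of -5.41 ± 1.05, -3.98 ± 0.86 and -3.81 ± 0.81, HEG1 with overlap because line 2 held 379 and 141 CPM. PLEC, a cytoskeletal linker, was among the most abundant, with 373 to 555 CPM in the AAVS and 110.4 to 227 CPM in the CREBBP pools with IL4.

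Of the 507 lower genes below baseline level, 413 were protein coding, 62 were long noncoding RNAs, 20 were immunoglobulin and 2 T-cell receptor genes. All 7698 tested genes below baseline level held 3153, 2769, 50 and 3 of these types, in the same order. In 291 (57.4%), every library other than the 4 AAVS IL4 libraries was under 0.5 CPM, against 810 (10.5%) of the 7698. This describes them only, since genes low at baseline and lower in the CREBBP pools pass the filter on low counts through the AAVS IL4 libraries. The most abundant were AHNAK, a large scaffold protein, CD44, the hyaluronan receptor that also marks B cells outside the germinal centre, and the intermediate filament VIM. AHNAK held 989.5, 199, 2545 and 1466 CPM in the AAVS pools with IL4 and 4.66, 5.14, 6.26 and 1.98 CPM in the CREBBP pools (log2 fold change -7.65 ± 0.94; edgeR, adjusted p = 0.0121), without overlap. Of the list of AHNAK, CD44, VIM, annexin and S100 genes, 6 of 10 were lower. CD44 held 455, 67.5, 941 and 158 CPM against at most 0.472 CPM, and VIM 308, 81.7, 695 and 391 CPM against at most 5.39 CPM. The genes with the largest fold were at 0 in each CREBBP IL4 library, so that the AAVS mean is a lower bound over 3 counts per library: NRIP1, a nuclear receptor corepressor, was at least 587-fold higher in the AAVS pools, the transcription factor MAF at least 254-fold, the surface protein CD200 at least 252-fold, the interferon-induced GTPase GBP4 at least 242-fold, the complement receptor CR1 at least 231-fold and the ubiquitin ligase RNF125 at least 226-fold. NRIP1 held 36.3, 18.2, 84.8 and 10.9 CPM in the AAVS pools with IL4 and at most 0.0205 CPM in any other library.

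Without IL4, most of the lower genes at baseline level were again lower in the CREBBP pools. Of the 163, 142 had a negative log2 fold change at baseline (87.1% against 47.8% of tested genes at baseline level), with a median of -0.45, 56 had an unadjusted p under 0.05 in this direction (background 6.59%), and 58 were lower in 4 of 4 lines (35.6% against 15.8%). Of the 507 below baseline level, 179 could be tested without IL4, and 132 of these were negative (73.7% against 59.5% of tested genes below baseline level). Relative to AAVS baseline, the median of the 163 was higher by 1.58 in the AAVS IL4 libraries on the log2(CPM + 1) scale. It was at -0.49 and -0.67 in the CREBBP libraries without and with IL4. For the 507 the same 3 values were 2.03, -0.03 and -0.04. The AAVS IL4 libraries had the highest of the 4 group means in 163 of the 163 and 506 of the 507. Of all tested genes at and below baseline level, 33.2% and 57.9% had this order. The choice of genes higher in these libraries fixes these counts, and the rise in the AAVS IL4 libraries, in large part. The test of the difference between the comparisons called 30 of the 163 and 78 of the 507, each lower with IL4, among them HSPA1A, LMNA, PDE4B, HLA-B, HLA-C, JAK1, TNFAIP3, IRF4, CCR7, AHNAK, CD44 and VIM. Of all 21932 genes in that test, 136 (0.62%) were called lower with IL4. It uses the same AAVS IL4 libraries by which the 163 and 507 were chosen, so these counts are not separate support.

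**Figure D5:**
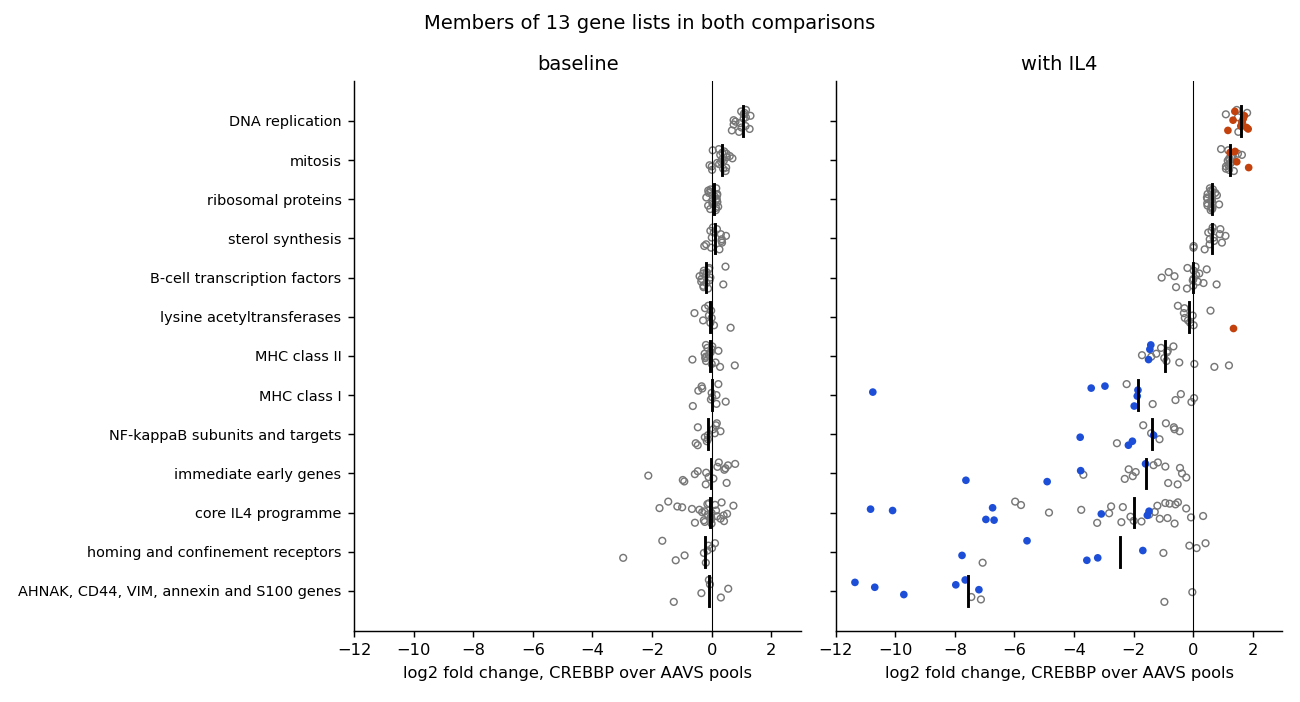
Log2 fold change of CREBBP over AAVS pools at baseline (left) and with IL4 (right) for the members of 13 gene lists, 1 point per tested gene, filled where the adjusted p was under 0.05, with a bar at each list's median. The replication list lies to the right of 0 in both panels, whereas the immune lists lie left of 0 with IL4 and near 0 at baseline.

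Lists of other programmes held no call in either direction. The 17 germinal centre and B-cell transcription factors, including BCL6, PAX5 and EBF1, had a median log2 fold change of 0.01, or -0.20 with upper-quartile scaling, and BCL6 held 494, 405, 428 and 382 CPM in the AAVS pools and 481, 214, 479 and 384 CPM in the CREBBP pools with IL4. The 13 histone deacetylases and corepressors had a median of -0.10. The 14 tested interferon-stimulated genes had a median of -1.84, and 9 of them had an unadjusted p under 0.05. The 20 ribosomal protein genes had a fitted median of 0.62, positive in 20 of 20 under each of the 3 scalings, but in line 4 by itself 0 of 20 were higher in log2(CPM + 1), with a median difference of -0.26. This fitted median stood beside a median of 0.18 for all tested genes at baseline level, and the counts at an unadjusted p under 0.05 and with DESeq2 were both 0. The 14 sterol synthesis genes had a fitted median of 0.64, with 14 positive, 13 with median-of-ratios factors and 12 with upper-quartile factors, but the lines differed, with 14, 4, 14 and 1 genes higher in lines 1 to 4. Over all 15 lists without a call by edgeR, 39 of 170 tested genes (22.9%) had an unadjusted p under 0.05 and DESeq2 called 33 (19.4%), beside 25.6% and 21.2% of all tested genes.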

How the data were processed

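RNA of 16 cultures (4 lines, 2 pools per line, with and without IL4) was sequenced as paired reads, and 1 table per library was deposited. The deposited values are expected counts per gene, which the authors made with RSEM 1.3.3 after alignment with STAR 2.7.8a to GRCh38 and trimming with cutadapt 2.3, per the labels. The deposited expected counts were already whole numbers, so no rounding was needed, and no depth normalization had been applied. RSEM divides reads that match several genes, so near-identical genes can exchange counts. Of 62714 genes, 62639 were found in GENCODE release 44, which gave types and positions, whereas the symbols came with the deposited counts.

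Samples were grouped by genotype and treatment in the labels and paired by line. Genes were kept with filterByExpr, and edgeR 4.0.16 (R 4.3.3) tested them after TMM scaling in a quasi-likelihood model of line and pool, two-sided, with Benjamini-Hochberg adjustment over all genes tested. One model of all 16 libraries tested the difference between the comparisons with and without IL4. CPM were counts divided by the library total, and line differences used log2(CPM + 1). Baseline level meant at least 1 CPM in each AAVS baseline library. A lower bound set each CREBBP IL4 library at 3 counts, which is 0.0484 to 0.0745 CPM. Such floors cover counting error only. The labels call the samples of a group different cell lines, with 1 library each, so the spread is that between lines. The deviations of same-line libraries correlated at 0.29, 0.53, -0.11 and 0.55 in lines 1 to 4 over 19581 genes, and the best correlation with another line was higher in lines 1 (0.40) and 3 (0.06), so the pairing rests on the shared line in the labels. The script was tested on simulated data with known changes.

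Genes were named as the 6 with the largest log2 fold change and the 3 with the highest level in each class of direction and baseline level, among protein-coding genes with a symbol, an adjusted p under 0.05 and one direction in 4 of 4 lines, plus CREBBP, EP300 and up to 5 examples per list in order of p. Further list members, called or not, were named after their values had been seen. The members, lists and tests were chosen with earlier results of these data known. Alternatives were median-of-ratios and upper-quartile factors, no filter, at least 10 counts in every library, no line block, each line left out, all 16 libraries in 1 model, genes at baseline level alone, DESeq2 1.42.0 and other definitions of baseline level. Promoter sequences came from RefSeq (GRCh38.p14), and the CREBBP guide sequences from the study's list of guides were matched to GRCh38. The sequences of the control guides are not reported here.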

Additional observations from a re-analysis of the deposited data

Results flagged for a closer look

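Of 186 groups of 4 libraries examined (93 genes, each in the AAVS and the CREBBP pools with IL4), 20 had 1 library whose distance from the nearest other was too large a part of the group's range by Dixon's criterion. Chance gives this in about 1 of 20 groups. In the AAVS pools the library that stood apart held 22.3 CPM of NAT8L, 127 CPM of TAP1, 82.1 CPM of CDC6, 368 CPM of MCM6, 48.8 CPM of CDC45 and 78.9 CPM of GINS2. In the CREBBP pools it held 4.37 CPM of HSPA1A, 14.7 CPM of ZBTB20, 7.08 CPM of HELZ2, 141 CPM of HEG1, 0.472 CPM of CD44, 5.39 CPM of VIM, 2.73 CPM of DOCK10, 122 CPM of CIITA, 2.48 CPM of NR4A3, 162 CPM of CCNB2, 0.0232 CPM of ANXA1, 0.0696 CPM of IGHM, 0.0696 CPM of TNFRSF13B and 0.124 CPM of HBA1. No cause was tested.

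For 25 of the genes named, the difference between CREBBP and AAVS pools with IL4 was itself unlike that at baseline (edgeR, 1 model of all 16 libraries, adjusted p under 0.05), and in 24 of them it was lower with IL4. On the log2 scale, the value with IL4 minus the value at baseline was -5.88 for HSPA1A, -4.71 for LMNA, -2.99 for PDE4B, -2.58 for HLA-B, -7.63 for AHNAK, -7.65 for VIM, -4.74 for DOCK10, -1.38 for JAK1, -3.10 for HLA-C, -1.67 for TRAF1, -1.84 for BIRC3, -3.46 for TNFAIP3, -3.36 for FOSL2 and -4.08 for NR4A3. HMMR was the one with a positive value, 1.42. The fitted values of genes near 0 outside the AAVS IL4 libraries depend on the prior count and are no measure of size: -10.78 for CD44, -6.82 for SPINT2, -6.50 for TMEM71, -6.63 for IRF4, -7.06 for CR2, -6.35 for CCR7, -7.36 for NR4A2, -18.04 for IGHM, -6.90 for FCRL5 and -10.84 for HBB. The AAVS IL4 libraries, which hold the markers of other cell types, enter each of these values, and their part was not tested.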

How the results depend on the processing

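With IL4, 189 genes were called higher (186 at baseline level, 3 not) and 670 lower (163 and 507). In the same order, the counts were 1066 (1028, 38) and 2400 (576, 1824) without a filter, 1538 (1481, 57) and 2616 (928, 1688) with DESeq2, and 1812 (1757, 55) and 2581 (928, 1653) with all 16 libraries in 1 model. With upper-quartile factors, 103 were higher, 100 of them at baseline level, and 249 at baseline level were lower. With at least 10 counts in every library, 0 genes below baseline level were higher, and 316 at and 136 below baseline level were lower, fewer genes being tested. Without the replicate block 17 were higher (16 and 1), and 73 at baseline level were lower. With genes at baseline level alone, 108 were higher and 221 lower. With baseline level set as 1 CPM in at least 1 AAVS library, the counts were 0 higher below it and 310 lower at it, and with a mean of 1 CPM, 263 lower at it. With 1 line left out, the counts ran from 0 to 886 higher (0 to 866 and 0 to 20) and from 25 to 1661 lower (1 to 539 and 24 to 1122). The baseline comparison, with 0 calls by edgeR and 2422 genes at an unadjusted p under 0.05, had 586 calls without a filter, 511 with DESeq2 and 0 to 515 with 1 line left out. The difference between the comparisons had 140 calls, 1191 without a filter, 1099 with DESeq2, 69 with at least 10 counts, 2 without the replicate block and 16 to 264 with 1 line left out. The plasma cell differentiation median changed sign, to 0.17 with at least 10 counts and 0.16 with genes at baseline level alone, where fewer of its members were tested. Other causes were not tested. Of 93 named genes, 93 kept their call with DESeq2, with no filter and with median-of-ratios factors, whereas 36 lost it without the block, 72 without line 1, 1 without line 2, 83 without line 3 and 53 without line 4.

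With 4 lines, 3 of them alike in the genes they hold, and totals of 19649735 to 61981976 counts, the limit on these values was the number and the make-up of the libraries, since every AAVS library with IL4 held markers of other cell types.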
